A study of Mus musculus with 6 samples.

Results

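The 10 genes described here encode damage recognition, incision and bypass proteins that deal with bulky DNA lesions, together with a ribonucleotide reductase subunit: Ddb1, Ddb2, Xpc, Xpa, Ercc1, Ercc4, Ercc5, Polh, Polk and Rrm2b. They were chosen by name and matched through their NCBI gene identifiers to the gene tables, where they are 10 of 17254 genes with reads in any of 6 libraries. All 10 had a mean FPKM (fragments per length of transcript and depth of library) of at least 1 over the 6 libraries, the level required for testing, as did 11717 genes in all.

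The study asked how oxidative stress affects the differentiation of cultured mouse neural stem and progenitor cells (NSPCs). It profiled their gene expression after treatment with the pro-oxidant paraquat (PQ) and with the anti-oxidant N-acetylcysteine (NAC). By the study's methods, total RNA was isolated after 48 h and libraries were prepared with an mRNA kit. The 2 control, 2 PQ and 2 NAC libraries had 9680436 to 10698241 expected counts per library. The cells grew in N2 medium with EGF and bFGF. The labels of control 1 and PQ 1 give the strain C57BL/6 and the genotype Ink/Ark knockout, and those of PQ 1 also give 5 µM PQ. The labels of the other 4 libraries give neither strain nor genotype nor dose. For the cells used in RNA sequencing, the study's methods state doses of 5 µM PQ and 5 mM NAC. The study's methods describe an immortalized Ink/Arf-/- culture derived from neonatal mice, so by that description the controls lack the tumour suppressor locus too, and a mixed population was sampled.

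Control 1 and PQ 1 are labelled as Illumina libraries, and control 2, PQ 2 and both NAC libraries as BGISEQ-500 libraries. PQ and control can therefore be compared within each labelled platform, whereas NAC can be compared with 1 control library on its own platform. Across genes, the deviation of control 1 from its group mean of log2 CPM correlated at r = -0.08 with that of PQ 1. The value for PQ 2, of the other label, was 0.08, its mirror with 2 libraries per group. Control 1 and PQ 1 thus showed no shared deviation. The replicate numbers only name libraries. The study states that sequencing was repeated, but nothing says that the libraries came from separate cultures, so the p-values measure only the spread between these samples, which may be technical. Across genes, log2(FPKM + 1) correlated at r = 0.987 to 0.991 between libraries of the same group and at 0.965 to 0.979 between groups. Genes are not independent replicates.

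Genes of neural progenitors were abundant, and genes of other cell types were present to differing extents. FPKM of the intermediate filament gene Nes was 76.6 to 117 over the 6 libraries, and that of the progenitor transcription factor Sox2 was 121 to 164. Of 6 neuronal markers, 1 had a mean FPKM of at least 1, Map2 at 32.6 to 64.9, while Dcx stayed at 0.08 or below and Rbfox3 had no reads. Summed FPKM of the neuronal list, nearly all of it from Map2, was 38 and 35.7 in control, 33.5 and 34.7 in PQ and 65.3 and 58.5 in NAC libraries. Tubb3 went the other way, at 2.38 and 1.3 FPKM in control, 0.72 and 0.47 in PQ and 0.32 and 0.44 in NAC libraries, and its mean of 0.938 was too low for testing. The neuronal markers therefore share no direction with NAC. Of 5 microglial markers, 1 had a mean FPKM of at least 1, P2ry12 at 1.28 to 3.88, while Aif1 stayed at 0.12 or below. Summed FPKM of the microglial list was 2.05 and 1.87 in control, 2.95 and 3.03 in PQ and 4.5 and 3.53 in NAC libraries. The genes tested of these lists, Map2 and P2ry12, were higher with NAC than in control, by a log2 fold change of 0.77 ± 0.10 and 1.18 ± 0.26 (edgeR adjusted p = 1.1e-05 and 0.0033). Cdkn2a, the gene of the knocked-out locus, had 16.6 and 19.1 FPKM in control, 13.7 and 15.9 in PQ and 14.4 and 15.7 in NAC libraries. A value for the whole gene is not tied to the deleted part and checks nothing about the genotype.

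In nucleotide excision repair, a bulky lesion is found either by the XPC and UV-DDB complexes anywhere in the genome or by a stalled RNA polymerase in transcribed genes, the helix is opened by TFIIH, and 2 nucleases cut the damaged strand on both sides before the gap is filled. Lesions that are still present during replication can be copied past by translesion polymerases, which are recruited by ubiquitinated PCNA and tolerate damaged templates at the price of fidelity. Several of these genes, among them DDB2, XPC, POLH and RRM2B, are known as p53 targets in human cells.

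With PQ, 4 of the 10 genes passed the test against control in edgeR's quasi-likelihood fit (Benjamini-Hochberg adjusted p under 0.05), where 19.2% of all genes tested passed. Of these, 3 were higher (Xpc, Ercc5 and Polk), against 9.76% of all genes, and 1 was lower (Polh), against 9.45%. With NAC, 2 genes passed against control (18.7% of all genes): Polk and Rrm2b were lower (9.64% of all genes), and 0 were higher (9.01%). Between PQ and NAC, 2 passed (31.6% of all genes), Ercc5 and Polk being higher with PQ (16.0% of all genes) and 0 lower (15.7%). DESeq2 called 2 of the 10 genes with PQ (Ercc5 and Polk; 14.3% of all genes), 1 with NAC (Polk; 14.5%) and 2 between PQ and NAC (Ercc5 and Polk; 25.1%), with 0 genes higher with NAC and 0 lower between PQ and NAC. At unadjusted p under 0.05 edgeR gave 5 of the 10 genes with PQ (31.6% of all genes), 4 with NAC (31.2%) and 4 between PQ and NAC (41.4%). The counts by either tool for NAC against control and PQ against NAC, and that by DESeq2 for PQ against control, lie near or below the share over all genes, and the edgeR count for PQ fell to 2 without control 2, PQ 1 or PQ 2. That for NAC fell to 1 without control 1 or NAC 2. The number of all genes that passed also depended on single libraries, falling from 2250 to 866 for PQ against control without PQ 1, from 2186 to 1286 and 1427 for NAC against control without NAC 1 and NAC 2, and from 3708 to 2343 and 2407 between PQ and NAC without PQ 1 and NAC 1.

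**Figure D1:**
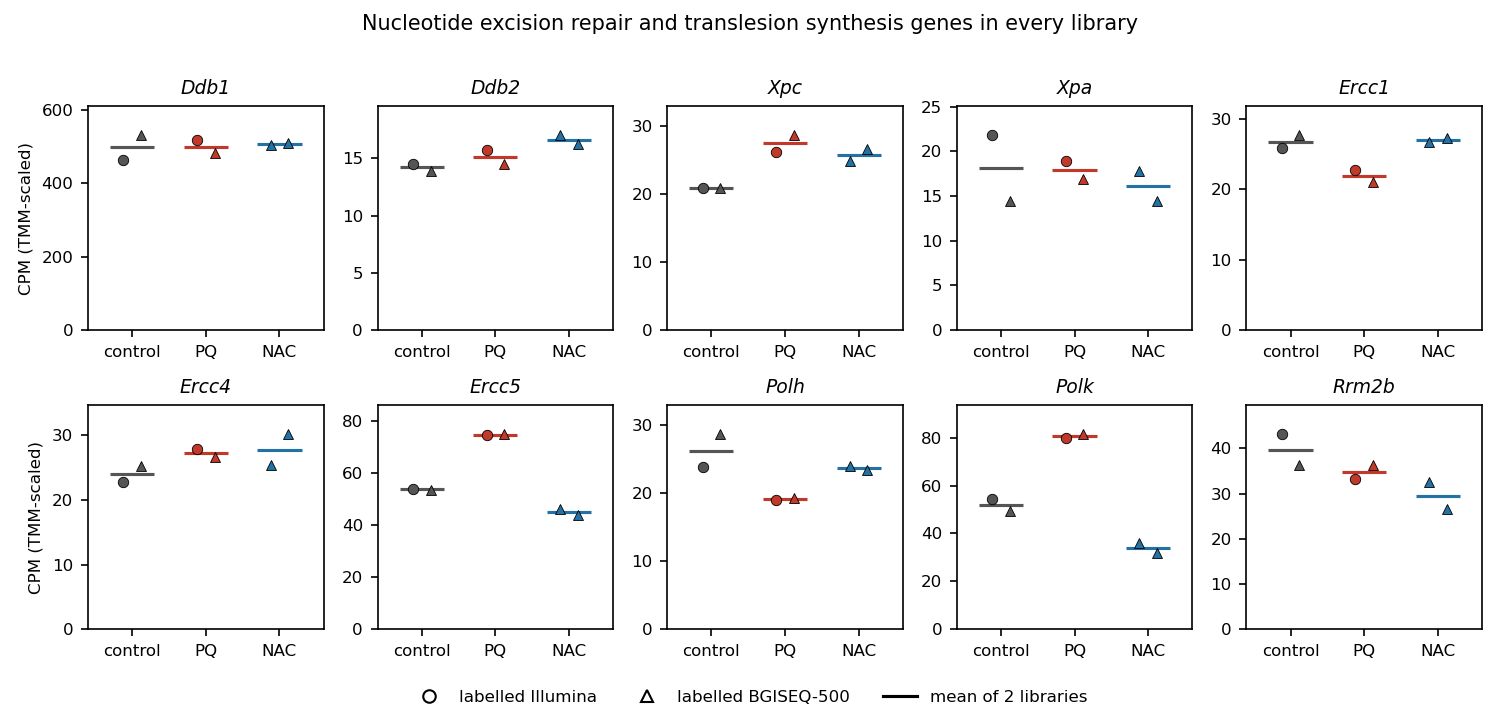
CPM (counts relative to the library's total, scaled by TMM) of the 10 genes in each library, with circles for libraries labelled Illumina, triangles for those labelled BGISEQ-500, lines for the mean of 2 libraries and each axis starting at 0. Ercc5 and Polk are highest in both PQ libraries and lowest in both NAC libraries, and Polh is lowest in both PQ libraries.

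Per length, the 10 genes spanned a wide range of levels. Ddb1 had a mean of 119 FPKM over the 6 libraries, above 95.0% of the genes tested, and Ercc4 the lowest of the 10 at 3.88 FPKM, above 17.8%. The genes between them, from high to low mean FPKM, were Ercc1 (22.9), Xpa (18.2), Ercc5 (14.3), Polk (13), Polh (8.86), Ddb2 (7.94), Rrm2b (7.56) and Xpc (6.75). Over single libraries the FPKM ranges of Ercc5 (11.1 to 18.7) and Polk (7.66 to 18.9) overlapped, as did those of Polh (7.35 to 10.9), Ddb2 (7.15 to 8.9), Rrm2b (5.92 to 9.2) and Xpc (5.58 to 7.77). Ercc4 is therefore separated from the rest of the 10 genes, at 3.29 to 4.52 FPKM, and Ddb1 from the rest at 108 to 124.

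Damage recognition was described by Ddb1, Ddb2 and Xpc. Ddb1 encodes the large subunit of UV-DDB and is also the adaptor of CUL4 ubiquitin ligases. Its CPM was 464 and 530 in control, 516 and 483 in PQ and 503 and 510 in NAC libraries. All groups overlapped, and the log2 fold change was 0.01 ± 0.09 (SE) for PQ and 0.03 ± 0.09 for NAC against control (edgeR adjusted p = 0.97 and 0.87). Ddb2 encodes the subunit that contacts the lesion. It had 14.5 and 13.9 CPM in control, 15.7 and 14.5 in PQ and 17 and 16.2 in NAC libraries. Both NAC libraries lay above the rest, but the log2 fold changes of Ddb2, 0.22 ± 0.15 for NAC and 0.09 ± 0.15 for PQ against control, did not pass (edgeR adjusted p = 0.34 and 0.74).

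Xpc encodes the protein that senses the distorted helix and starts repair outside transcribed strands. Its CPM was 20.9 in each control, 26.3 and 28.7 with PQ and 24.9 and 26.7 with NAC. Both treated groups lay above the controls, and PQ and NAC overlapped. The log2 fold change of Xpc was 0.39 ± 0.13 (SE, n = 2 per group) for PQ against control, with an edgeR adjusted p of 0.045, and 0.30 ± 0.13 for NAC against control, which did not pass (0.13). The difference between PQ and NAC was 0.09 ± 0.13 (edgeR adjusted p = 0.63). The PQ call was near the threshold, and 3 of 13 alternatives kept it, over which the adjusted p ran from 0.044 to 0.23 and the log2 fold change from 0.33 to 0.46. It was lost with the labelled platform as a covariate, a fit that sets each PQ library beside the control of its platform (0.39, edgeR adjusted p = 0.062), and without any one of the libraries, the edgeR adjusted p being 0.11 without control 1, 0.098 without control 2, 0.11 without PQ 1, 0.23 without PQ 2 and 0.061 without NAC 1 or NAC 2. It was also lost in DESeq2 (adjusted p = 0.13), with no filter on low values (0.051) and with only the 4 libraries compared (0.06). Within labelled platforms, the difference of log2 CPM between PQ and control was 0.33 for the Illumina and 0.46 for the BGISEQ pair.

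Xpa, which encodes the scaffold that checks the lesion and places the nucleases, differed most between the controls relative to its mean. It had 21.8 and 14.5 CPM in control, 18.9 and 16.9 in PQ and 17.8 and 14.4 in NAC libraries. Both PQ values lay between the controls, and all groups overlapped. The log2 fold change of Xpa was -0.01 ± 0.18 for PQ and -0.16 ± 0.18 for NAC against control, neither of which passed (edgeR adjusted p = 0.98 and 0.59). Its sign changed with control 1 left out, to 0.31 and 0.16.

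Of the 3 incision genes, Ercc5 passed in edgeR with PQ, and Ercc1 and Ercc4 passed in no comparison there. ERCC1 and XPF, the product of Ercc4, form the nuclease that cuts 5′ of the lesion, and XPG, the product of Ercc5, cuts on the 3′ side. Ercc1 had 25.9 and 27.7 CPM in control, 22.8 and 21 in PQ and 26.8 and 27.3 in NAC libraries. Both PQ values lay below the other 4, at a log2 fold change of -0.29 ± 0.13 against control and -0.30 ± 0.13 against NAC. Neither passed in edgeR (adjusted p = 0.14 and 0.086), whereas limma on log2(FPKM + 1) called the difference between PQ and NAC at -0.32 (adjusted p = 0.032), the range over 13 alternatives being 0.032 to 0.33. Ercc4 had 22.8 and 25.2 CPM in control, 27.9 and 26.6 in PQ and 25.3 and 30.1 in NAC libraries. The treated libraries all lay above the controls, NAC 1 by little, and the log2 fold changes of Ercc4 did not pass (0.18 ± 0.14 for PQ and 0.21 ± 0.14 for NAC, edgeR adjusted p = 0.39 and 0.33). Its expected counts were fractional in all 6 libraries, which an estimate gives where reads are divided among transcripts.

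Ercc5 had 53.9 and 53.7 CPM in control, 74.8 and 75 in PQ and 46.3 and 43.9 in NAC libraries. The 3 groups did not overlap: PQ was high, control between and NAC low, with replicates close together in each. Ercc5 rose with PQ by a log2 fold change of 0.48 ± 0.10 (SE, n = 2 per group), or 1.39-fold, at an edgeR adjusted p of 0.0024. With NAC the log2 fold change against control was -0.25 ± 0.10 and did not pass (edgeR adjusted p = 0.098), while PQ exceeded NAC by 0.73 ± 0.10 (adjusted p = 2.1e-05). These PQ calls passed in all 13 alternatives, at 0.47 to 0.50 against control and 0.66 to 0.77 against NAC. The PQ and control libraries of the same labelled platform differed in log2 CPM by 0.47 (Illumina) and 0.48 (BGISEQ). In bulk RNA, a change in the number of cells that express a gene and a change in RNA per cell cannot be told apart.

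Of the bypass genes, Polk encodes polymerase kappa, a Y-family enzyme that inserts opposite and extends past minor groove adducts of guanine. Polk had 54.5 and 49.5 CPM in control, 79.7 and 81.4 in PQ and 36.2 and 32 in NAC libraries. The 3 groups were separate, with PQ high and NAC low. Polk rose with PQ, at a log2 fold change of 0.63 ± 0.11 (SE, n = 2 per group), or 1.55-fold (edgeR adjusted p = 3.9e-04), and fell with NAC, at -0.61 ± 0.11 (adjusted p = 6.5e-04). These comparisons share the control libraries. PQ exceeded NAC by 1.24 ± 0.11, or 2.36-fold (edgeR adjusted p = 1.3e-07). All 3 calls for Polk passed in each of 13 alternatives, which gave 0.56 to 0.70 for PQ against control, -0.70 to -0.51 for NAC against control and 1.13 to 1.33 for PQ against NAC. On log2 CPM, PQ 1 exceeded control 1 by 0.55 and PQ 2 exceeded control 2 by 0.72, and the NAC libraries differed from the control on their own labelled platform by -0.54. Its expected counts were fractional in 4 libraries.

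Polh encodes polymerase eta, which copies accurately past thymine dimers. It had 23.8 and 28.6 CPM in control, 19 and 19.2 in PQ and 23.9 and 23.4 in NAC libraries. Both PQ libraries were below the other 4, and NAC overlapped with control. The log2 fold change of Polh with PQ was -0.46 ± 0.14 (SE, n = 2 per group; edgeR adjusted p = 0.028), and those of NAC against control, -0.15 ± 0.14, and PQ against NAC, -0.31 ± 0.14, did not pass (adjusted p = 0.5 and 0.11). The PQ call passed in 8 of 13 alternatives, with adjusted p from 0.013 to 0.19. It was lost without control 2 (-0.32), PQ 1 (-0.45) or PQ 2 (-0.46). It was also lost in DESeq2 (-0.46, adjusted p = 0.081) and in limma on log2(FPKM + 1) (-0.38, adjusted p = 0.051).

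Taken per length within each library, which needs no scaling between libraries, the FPKM of Polk exceeded that of Polh by a ratio of 1.39 and 1.05 in control and 2.55 and 2.57 in PQ libraries, and the ratio was 0.923 and 0.831 in NAC libraries. Polk was thus the more abundant of both polymerases in control and PQ libraries, and Polh in NAC libraries. The incision genes had a similar shift: the FPKM ratio of Ercc5 to Ercc1 was 0.564 and 0.527 in control, 0.901 and 0.976 in PQ and 0.47 and 0.439 in NAC libraries. By contrast, the ratio of Ddb1 to Ddb2 was 14.7 and 17.4 in control, 15.1 and 15.2 in PQ and 13.5 and 14.4 in NAC libraries. These are 3 of 6 ratios computed, chosen after the values were seen, and they carry no test. Another of the 6, Ercc1 to Ercc4, also without a test, was 7.02 and 6.8 in control, 4.99 and 4.84 in PQ and 6.52 and 5.59 in NAC libraries.

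**Figure D2:**
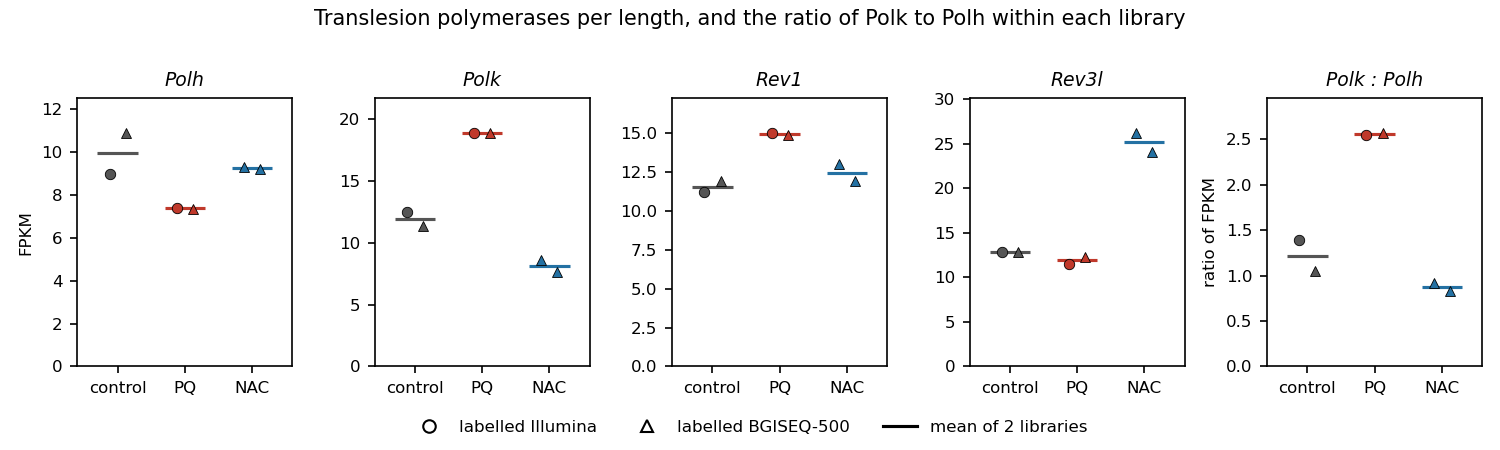
FPKM of 4 translesion polymerase genes and, on the right, the ratio of Polk to Polh FPKM within each library, with symbols as in the plot of CPM by library. The ratio is 2.55 and 2.57 in PQ libraries and 0.923 and 0.831 in NAC libraries, and Rev3l stands apart by its level in NAC libraries.

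Because Ercc5 and Polk were high with PQ and low with NAC while Polh was low with PQ, the sequences before their annotated starts are shown. RefSeq promoter entries (GRCm38.p6) matched 7 of the 10 genes: Ddb1, Ercc1, Ercc4, Ercc5, Polh, Polk and Xpa. The 250 bases before each start were searched on both strands for 8 motifs, chosen after the values were seen: the p53 half-site, the FOXO motif GTAAACA, the NRF2 motif TGACNNNGC, the CCAAT box, the GC box GGGCGG, the E2F motif TTTCGCGC or TTTGGCGC, the CRE TGACGTCA and its half-site TGACG, which lies within the CRE. Capitals mark matches, each written 5′ to 3′ on the gene's strand: a CCAAT box for Ercc5 (plus strand, chr1:44147494-44147743), a GC box in reverse and a CRE half-site for Polk (minus strand, chr13:96542580-96542829), and a CRE half-site and a GC box for Polh (minus strand, chr17:46202642-46202891).
Ercc5: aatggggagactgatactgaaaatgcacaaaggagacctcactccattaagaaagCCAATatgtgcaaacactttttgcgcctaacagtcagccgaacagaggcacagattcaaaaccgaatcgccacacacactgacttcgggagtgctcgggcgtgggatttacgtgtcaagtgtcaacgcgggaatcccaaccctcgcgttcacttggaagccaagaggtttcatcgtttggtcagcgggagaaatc
Polk: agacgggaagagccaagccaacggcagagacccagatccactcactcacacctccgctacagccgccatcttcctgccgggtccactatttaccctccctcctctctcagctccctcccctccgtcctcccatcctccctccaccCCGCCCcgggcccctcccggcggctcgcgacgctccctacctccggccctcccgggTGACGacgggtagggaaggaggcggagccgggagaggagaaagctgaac
Polh: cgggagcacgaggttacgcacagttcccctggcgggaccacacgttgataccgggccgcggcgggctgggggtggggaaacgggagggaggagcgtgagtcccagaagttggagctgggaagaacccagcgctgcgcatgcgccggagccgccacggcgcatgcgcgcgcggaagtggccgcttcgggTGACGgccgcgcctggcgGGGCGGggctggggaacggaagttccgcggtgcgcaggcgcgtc
The windows shown for Polk and Polh hold the GC box and the CRE half-site, and that of Ercc5 holds neither. Whether these motifs bear on the values was not tested. Of 32851 mouse promoter entries of the same length, 32.7% held the GC box, 17.8% the CRE half-site and 33.8% the CCAAT box. A second annotated start of Polk, downstream of the first, has a p53 half-site (GAACTAGCCT) in the 250 bases before it (chr13:96519188-96519437), as do 7.13% of all entries. Among the other genes, Ddb1 and Ercc1 held the GC box, and Ercc4 and Xpa the CCAAT box. The FOXO, NRF2, E2F and CRE motifs, found in 3.17%, 10.2%, 0.654% and 1.55% of all entries, matched in none of the windows of these 7 genes. A match describes letters only, and binding was not tested.

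Rrm2b encodes p53R2, the small ribonucleotide reductase subunit that supplies deoxynucleotides for repair and for mitochondrial DNA outside S phase. It had 43.1 and 36.4 CPM in control, 33.3 and 36.3 in PQ and 32.5 and 26.6 in NAC libraries. Both NAC libraries were below all others, and PQ 2 at 36.3 lay just under control 2 at 36.4. The log2 fold change of Rrm2b was -0.43 ± 0.13 (SE, n = 2 per group) for NAC against control (edgeR adjusted p = 0.029) and -0.19 ± 0.13 for PQ against control, which did not pass (0.35). The NAC call passed in 7 of 13 alternatives, with adjusted p from 0.0084 to 0.27. It was lost without control 1 (-0.30) or NAC 2 (-0.29). It was also lost with the labelled platform as a covariate (-0.39, edgeR adjusted p = 0.098) and in DESeq2 (-0.43, adjusted p = 0.067). In limma it was lost on log2(FPKM + 1) (-0.34, adjusted p = 0.1) and on log2(FPKM + 0.1) (-0.38, 0.096). Rrm2, its S phase paralog, had 317 and 325 CPM in control, 213 in both PQ and 277 and 259 in NAC libraries, and fell with PQ by a log2 fold change of -0.59 ± 0.09 (edgeR adjusted p = 1.7e-04). The ratio of Rrm2 to Rrm2b FPKM, another of the 6, was 15.3 and 18.6 in control, 13.3 and 12.2 in PQ and 17.7 and 20.2 in NAC libraries, lowest in the PQ libraries.

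**Figure D3:**
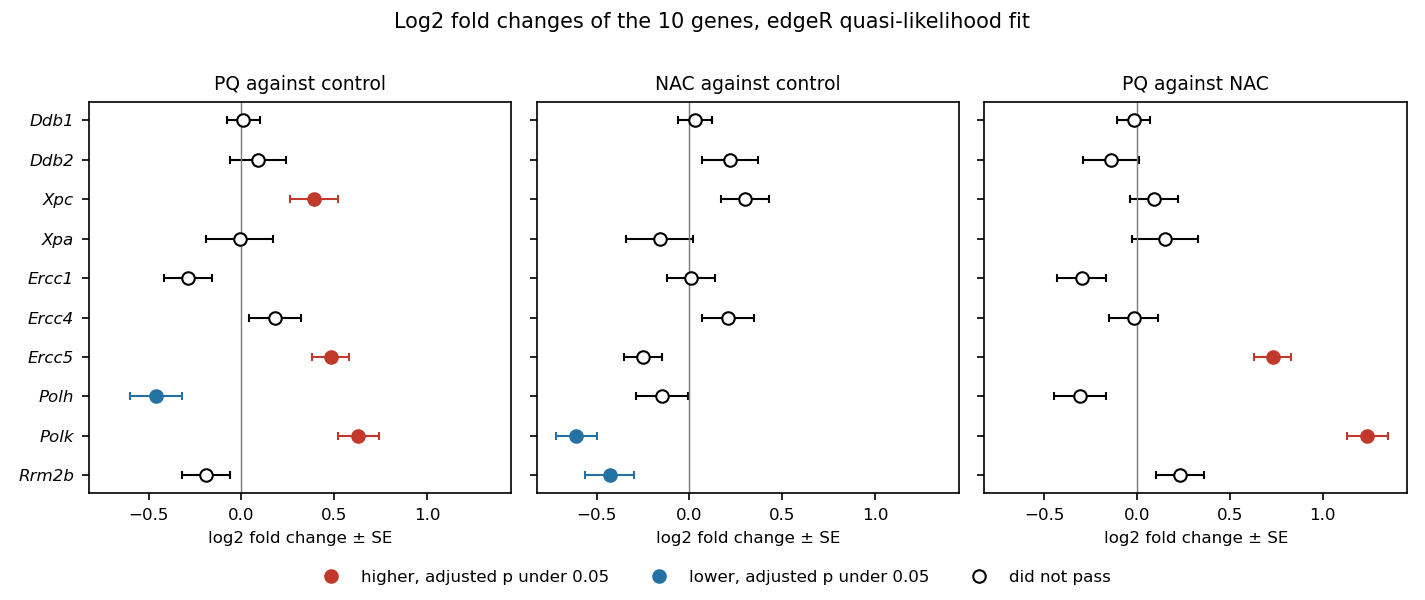
Log2 fold changes of the 10 genes in 3 comparisons, with bars for the SE of edgeR's quasi-likelihood fit and filled points for those that passed at adjusted p under 0.05. Polk lies at 0.63 with PQ and -0.61 with NAC against control, and Ercc5 at 0.48 with PQ against control and 0.73 against NAC.

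Beside the 10 genes, 72 further repair, bypass and deoxynucleotide genes in 7 lists were read from the same fit. The lists were chosen with earlier results of these data known, so a count above the share of all genes carries no test. With PQ, 2 of the 72 were higher (9.76% of all genes) and 28 lower (9.45%), with a median log2 fold change of -0.25, while the 10 genes had a median of 0.05 and all genes tested one of 0.00. With NAC, 4 of the 72 were higher (9.01% of all genes) and 2 lower (9.64%), a total of 8.33% against 18.7% of all genes (median -0.01; the 10 genes, -0.07). Between PQ and NAC, 5 were higher (16.0% of all genes) and 29 lower (15.7%; median -0.24; the 10 genes, 0.04). The counts of each list below stand against the same shares of all genes, and a count near or below them says nothing particular about its list.

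Of 6 partners of the recognition factors, 1 was higher and 1 lower with PQ, with log2 fold changes from -0.35 to 0.34 (median -0.02), and DESeq2 also called 2. The ligase scaffold Cul4b was higher, at 0.34 ± 0.10 (edgeR adjusted p = 0.025), and passed in 9 of 13 alternatives. Cul4b was also the 1 of 6 called with NAC, at 0.30 ± 0.10 (adjusted p = 0.047), in 3 of 13 alternatives, its log2 fold change running from 0.19 (without NAC 1) to 0.39. DESeq2 did not call it with NAC (0.078) and called 1 other gene of the list. Of 7 genes of transcription-coupled repair, 0 were higher and 2 lower with PQ, Uvssa at -0.39 ± 0.12 and the nucleosome-binding gene Hmgn1 at -0.38 ± 0.09 (edgeR adjusted p = 0.025 and 0.0077; 8 and 10 of 13 alternatives), and DESeq2 called 1, Hmgn1. With NAC edgeR called 0 of the 7, with 1 at unadjusted p under 0.05, and DESeq2 0. Hmgn1, the most abundant by mean FPKM, stood at -0.12 ± 0.09. For TFIIH, the helicase complex that XPC and XPA work with, edgeR called 0 of 10 genes with PQ (3 at unadjusted p under 0.05; DESeq2 0) and 0 with NAC (1; DESeq2 0). Its most abundant gene by mean FPKM, Gtf2h5, stood at 0.25 ± 0.11 with PQ and 0.19 ± 0.11 with NAC.

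After the cuts, the gap is filled and sealed. Of 20 genes for repair synthesis and ligation, 13 were lower with PQ and 0 higher, with a median log2 fold change of -0.47 (DESeq2 called 12). The catalytic subunits Pold1 (mean CPM 70.7 in control and 35.3 in PQ libraries, edgeR adjusted p = 9.0e-06) and Pole (log2 fold change -0.99 ± 0.11, 9.2e-06) fell most, and Rfc1 (-0.34 ± 0.10, adjusted p = 0.018) and Xrcc1 (-0.31 ± 0.10, 0.037) least among those called, the latter 2 passing in 8 and 4 of 13 alternatives. With NAC, 1 of the 20 was higher, the single-strand binding subunit Rpa2 (0.62 ± 0.14, edgeR adjusted p = 0.0034), and 1 lower, Pold2 (-0.30 ± 0.10, 0.041; 3 of 13 alternatives). Of 10 genes for deoxynucleotide supply, 7 were lower with PQ and 0 higher (median -0.49; DESeq2 called 5), from the thymidine kinase gene Tk1 at -0.83 ± 0.12 and Dut at -0.64 ± 0.12 to Dck at -0.46 ± 0.11 and Tyms at -0.36 ± 0.11. Tk1 and Dut passed in 13 of 13 alternatives and Dck in 11, while Tyms passed in 8, its log2 fold change running from -0.52 to -0.20 over the 13 with adjusted p up to 0.42. With NAC edgeR called 0 of these 10 (1 at unadjusted p under 0.05, and DESeq2 called 1). Rrm2, the most abundant by mean FPKM, was at -0.26 ± 0.09.

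Of 7 genes of other translesion polymerases and their partners, 1 was higher and 1 lower with PQ (median -0.28), and DESeq2 called 0. Rev1, the scaffold on which the Y-family enzymes assemble, had 49.7 and 52.2 CPM in control, 64.3 and 65.2 in PQ and 55.6 and 50.6 in NAC libraries. Its PQ libraries were the highest, at a log2 fold change of 0.34 ± 0.10 against control (edgeR adjusted p = 0.026; 9 of 13 alternatives, lost without control 1, PQ 1 or PQ 2 at 0.1, 0.13 and 0.12, and in DESeq2 at 0.059) and 0.28 ± 0.10 against NAC (0.042; 4 of 13 alternatives), the same direction as Polk. Poln was at -0.79 ± 0.27 (0.047; 3 of 13, with values from -1.02 to -0.43), and Poli, the closest relative of Polh, at -0.42 ± 0.16, which did not pass (0.085). Rev3l, the catalytic subunit of polymerase zeta that extends past lesions, had 142 and 140 CPM in control, 124 and 134 in PQ and 281 and 256 in NAC libraries. Both NAC libraries were far above the others, in the opposite direction from Polk, with log2 fold changes of 0.93 ± 0.10 against control (edgeR adjusted p = 1.4e-06) and -1.06 ± 0.10 for PQ against NAC (1.6e-07). Its partner Mad2l2 fell with NAC, at -0.49 ± 0.13 (adjusted p = 0.013; 10 of 13 alternatives). The FPKM ratio of Rev3l to Polk, also among the 6, was 1.02 and 1.12 in control, 0.61 and 0.651 in PQ and 3.05 and 3.15 in NAC libraries.

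Recruitment of Polh and Polk depends on PCNA ubiquitination. Of 12 genes that add, read or remove that mark, 4 were lower with PQ and 0 higher (median 0.00): the ligase gene Rad18 (-0.55 ± 0.12, edgeR adjusted p = 0.0035), the deubiquitinase gene Usp1 (-0.61 ± 0.11, 5.8e-04), Atad5 (-0.59 ± 0.11, 0.0012) and Zranb3 (-0.53 ± 0.13, 0.0091). Usp1 and Atad5 passed in 13 of 13 alternatives and the other 2 in 12. With NAC, 1 was higher, the conjugating enzyme gene Ube2a (0.40 ± 0.11, adjusted p = 0.018; 11 of 13).

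**Figure D4:**
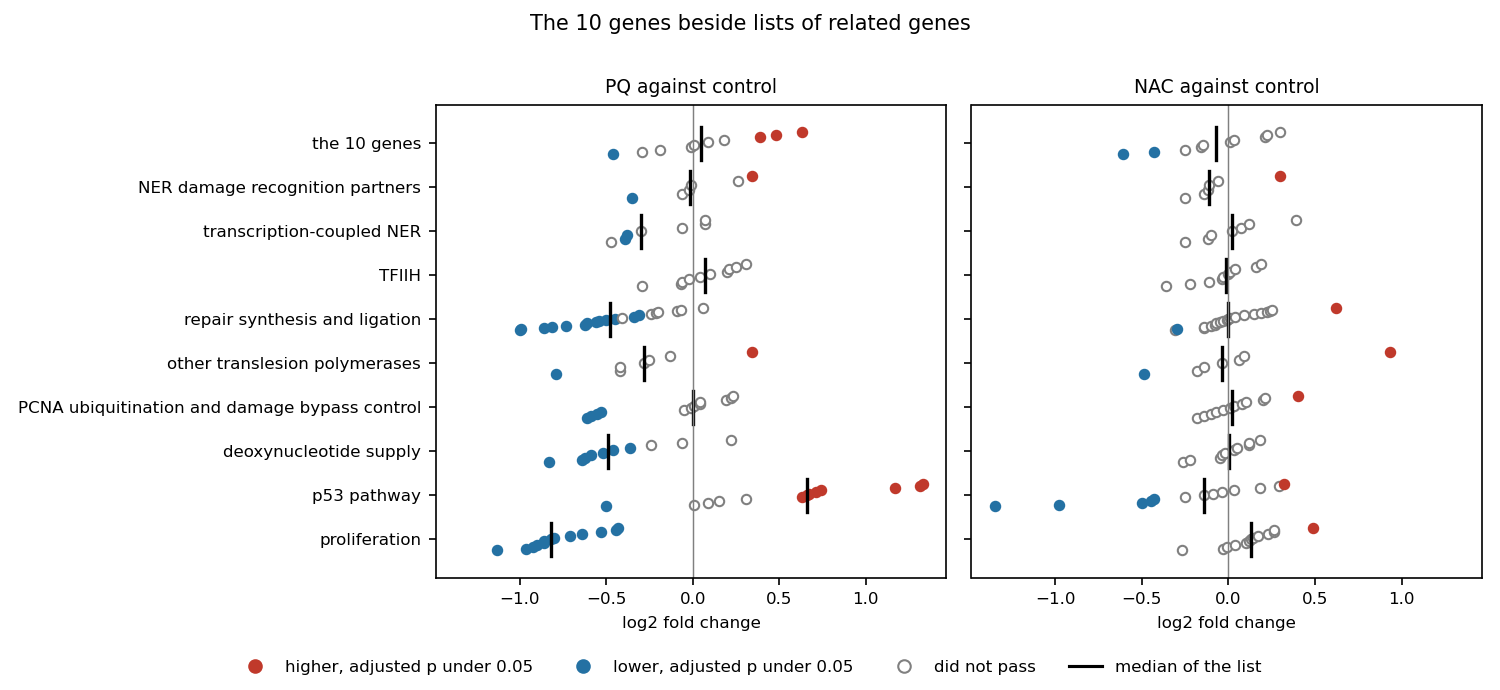
Log2 fold changes of the 10 genes and of 9 lists of related genes, with 1 point per gene, filled where it passed (edgeR adjusted p under 0.05), and a line at each list's median. With PQ, the medians of repair synthesis, deoxynucleotide supply and proliferation are -0.47, -0.49 and -0.82, and that of the p53 pathway is 0.66.

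Genes of 2 further processes, the p53 pathway and proliferation, were read from the same fit, in lists also chosen with earlier results known. Of 13 p53 pathway genes, 8 were higher and 1 lower with PQ (median log2 fold change 0.66), and 1 higher and 5 lower with NAC (median -0.14). Cdkn1a, the cell cycle inhibitor, had 474 and 467 CPM in control, 1090 and 1035 in PQ and 223 and 255 in NAC libraries, the order seen for Polk and Ercc5. Its log2 fold change was 1.17 ± 0.09 with PQ and -0.98 ± 0.09 with NAC (edgeR adjusted p = 2.8e-07 and 6.1e-07). Ddb2, Xpc, Polh and Rrm2b, named above as p53 targets in human cells, did not have the order of Cdkn1a. Against control their log2 fold changes were 0.09, 0.39, -0.46 and -0.19 with PQ and 0.22, 0.30, -0.15 and -0.43 with NAC. Of these, Xpc and Polh passed in edgeR with PQ and Rrm2b with NAC. Mdm2 was at 0.66 ± 0.10 with PQ and -0.45 ± 0.10 with NAC. Trp53 itself was at 0.09 ± 0.10 with PQ, which did not pass, and 0.32 ± 0.10 with NAC (adjusted p = 0.034; 6 of 13 alternatives, with values from 0.19 without control 1 to 0.47). Ccng1 (1.33 ± 0.10) and Trp53inp1 (1.31 ± 0.10) rose most with PQ, Ei24 (0.63 ± 0.10) least, and Sesn2 was lower (-0.50 ± 0.15; 7 of 13 alternatives, with values from -0.74 to -0.21, the latter without control 1 at an adjusted p of 0.41). With NAC, Sesn2 fell most (-1.35 ± 0.16) and Phlda3 least (-0.43 ± 0.13; 7 of 13, with values from -0.62 to -0.26, the latter without NAC 1 at an adjusted p of 0.31).

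Of 13 proliferation genes, 13 were lower with PQ (median -0.82), from Mki67 at -1.13 ± 0.10 and Aurkb at -0.96 ± 0.10 to Mcm4 at -0.44 ± 0.11 and Ccnb1 at -0.43 ± 0.10. Mki67 and Aurkb passed in 13 of 13 alternatives and Ccnb1 in 12, while Mcm4 passed in 8, its log2 fold change running from -0.62 to -0.24 over the 13 with adjusted p up to 0.14. With NAC, 1 was higher (Mcm4, 0.49 ± 0.11; 11 of 13 alternatives, with values from 0.31 without control 1 to 0.69; median of the list 0.13). Between PQ and NAC, 9 of the p53 pathway genes were higher and 0 lower, and 13 of the proliferation genes were lower. Marker genes of astrocytes differed too, in unlike directions. Summed FPKM of 5 such genes, most of it from Slc1a3, was 110 and 96.6 in control, 78.1 and 79.7 in PQ and 135 and 134 in NAC libraries. With PQ, Slc1a3 was lower (log2 fold change -0.48 ± 0.09, edgeR adjusted p = 0.0016), Aldh1l1 higher (1.17 ± 0.26, 0.0035), and Gfap (-0.05 ± 0.24), Aqp4 (-0.15 ± 0.27) and S100b (0.65 ± 0.48) did not pass. With NAC, Slc1a3 (0.29 ± 0.09, adjusted p = 0.034), Gfap (1.23 ± 0.21, 3.1e-04) and Aqp4 (1.76 ± 0.22, 1.4e-05) were higher, and S100b (1.17 ± 0.44) and Aldh1l1 (-0.49 ± 0.31) did not pass. The part of p53 activity, proliferation or cell types in the values of Ercc5, Polk, Polh and Rrm2b was not tested.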

How the data were processed

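RNA-seq gene tables of 6 NSPC libraries were used, 1 table per library. The authors deposited expected counts (estimated fragments per gene, not normalized) and FPKM (scaled by transcript length and library depth) for each gene. The submitters' processing notes name TopHat2 2.0.11 and Cufflinks 2.1.1 with mm9 for control 1 and PQ 1, and HISAT2 2.0.4, Bowtie2 2.2.5 and RSEM with mm10 for the other 4. All 6 tables nevertheless had 1 layout, and 8790 of 8790 single-transcript genes had the same length in each. NCBI identifiers were matched to symbols for 99.7% of genes.

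Expected counts were rounded (23.2% of tested genes had a fractional value) and fitted over all 6 libraries in edgeR 4.0.16 (R 4.3.3) with TMM scaling and the two-sided quasi-likelihood test, keeping genes whose FPKM averaged 1 or more. P-values were adjusted by Benjamini-Hochberg over 11717 genes, with a threshold of 0.05. The SE is the log2 fold change divided by the root of F. CPM uses TMM-scaled totals. Alternatives were DESeq2 1.42.0, its size factors in edgeR, no filter, a covariate for the labelled platform, a fit restricted to the 4 libraries of a comparison, each library left out, and limma 3.58.1 on log2(FPKM + 1) and log2(FPKM + 0.1).

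The 10 genes and the lists were chosen with earlier results of these data known. In each list, the text names the 2 largest and the 2 smallest log2 fold changes that passed against control. Where none passed, it names the gene with the highest mean FPKM. Rrm2, Poli, Rev1, Rev3l, Mki67, Trp53, Mdm2 and Cdkn1a are always named. Some genes that this rule would name are not reported here.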

Additional observations from a re-analysis of the deposited data

How the results depend on the processing

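Ercc5 (PQ against control and against NAC) and Polk (in all 3 comparisons) kept direction and call in 13 of 13 alternatives. The number of the 10 genes called with PQ against control, 4, was 2 in DESeq2 and 2 to 3 with a library left out; with NAC against control, 2, it was 1 in DESeq2, with the labelled platform as a covariate and in limma with either pseudocount, and 1 to 2 with a library left out. The number of all genes called ran from 866 to 2206 for PQ against control, 1286 to 2126 for NAC against control and 2343 to 4207 for PQ against NAC when single libraries were left out. A group then holds a lone library, assumed to vary like the others. The cause of the spread in these counts was not tested.

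Sign changes occurred among values that did not pass. With single libraries left out, the log2 fold change for PQ against control ran from -0.09 to 0.11 for Ddb1 (-0.09 without control 1, -0.04 without PQ 1), -0.28 to 0.31 for Xpa (0.31 without control 1, 0.06 without PQ 2) and -0.04 to 0.24 for Trp53. For NAC against control it ran from -0.06 to 0.13 for Ddb1, -0.43 to 0.16 for Xpa, -0.03 to 0.06 for Ercc1 and -0.01 to 0.13 for Rev1. Between PQ and NAC it ran from -0.07 to 0.03 for Ddb1 and -0.14 to 0.11 for Ercc4. With the labelled platform as a covariate, Xpa was at 0.04 for NAC against control and -0.04 for PQ against NAC, and Ddb1 at 0.00 for PQ against NAC. In limma with either pseudocount, Xpa was at 0.04 for PQ against control. The cause was not tested.

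Over the 10 genes and 13 alternatives, the calls that crossed the threshold were 15 lost for PQ against control (Xpc and Polh), 6 lost for NAC against control (Rrm2b) and 2 gained between PQ and NAC (Ercc1). The labelled platform as a covariate, which pairs each PQ library with the control of its platform, left 3 of the 10 genes called with PQ against control, Xpc being lost (adjusted p = 0.062). Both NAC libraries are labelled BGISEQ-500, so that fit takes the platform difference from the control and PQ libraries only. A platform difference particular to NAC cannot be told apart from NAC. Genes with few counts, such as Ddb2 with 138 to 183 expected counts per library, allow only larger changes to pass.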
